A study of Mus musculus with 10 samples.

Results

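A group of 10 imprinted genes that act on growth were followed in cultured mouse embryonic fibroblasts, connective tissue cells grown out of embryos, over a course of treatment with IFN-β (interferon-beta), an antiviral cytokine that cells secrete. They are H19, Igf2, Cdkn1c, Dlk1, Meg3, Dio3, Mest, Peg3, Grb10 and Igf2r, 10 of the 23370 gene symbols of the deposited expression table. Each was taken by its symbol, with the transcript of the highest mean level where the table lists several, and 9 of the 10 passed the filter on low values that 12168 of all symbols passed. The members were selected on measured values: H19 was low in 3 of the 5 libraries of pretreated cells and Dio3 was progressively lower along the course of the naive cells. For that reason the arm difference of H19 and the change of Dio3 after stimulation are given as descriptions, with no test. Per the labels there was a naive arm and a pretreated arm, and total RNA was taken once from each at 0, 1, 2, 4 and 6 h, which makes 1 library per arm and time. All 10 libraries came from C57BL/6 fibroblasts of H3.3b-HA knock-in mice, in which an H3.3-HA cDNA stands at H3f3b, a locus for histone variant H3.3. No group lacks this allele. The medium was DMEM with 10% FBS and IFN-β was used at 100 U/ml. How long and at what dose the pretreated cells had been exposed, and whether it was washed out, is not stated in the labels. The hours were taken to count from the addition of IFN-β.

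Imprinted genes are transcribed mainly or only from the chromosome inherited from a given parent, under control of DNA methylation set in the germ line. Many of them act on fetal growth. H19 and Igf2 share an imprinting control region and enhancers: the maternal chromosome makes the noncoding RNA H19, and the paternal chromosome makes insulin-like growth factor 2. Cdkn1c lies further along the same chromosome in a separately controlled domain. Dlk1, Meg3 and Dio3 belong to another imprinted domain, in which the paternal chromosome makes Dlk1 and Dio3 and the maternal chromosome makes the noncoding RNA Meg3. Expression of these genes is usually high in embryonic mesenchyme and is lost in most tissues after birth. The libraries measure the sum of both alleles, so imprinting itself was not measured.

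The genes lie in 6 regions of mm10. H19 (chr7:142575532-142578146, minus strand) lies 72.62 kb from Igf2 (chr7:142650768-142657481, minus strand), and Cdkn1c (chr7:143458339-143461050, minus strand) follows 800.86 kb beyond Igf2. Peg3 (chr7:6705960-6730419, minus strand) is on the same chromosome, far from that cluster. Dlk1 (chr12:109453455-109463336, plus strand) and Meg3 (chr12:109540996-109571729, plus strand) are 77.66 kb apart, and Dio3, a gene of 1 exon (chr12:110279230-110281097, plus strand), lies 707.5 kb beyond Meg3. Mest is at chr6:30738050-30748466 on the plus strand, Grb10 at chr11:11930499-12027971 on the minus strand and Igf2r at chr17:12682406-12769706 on the minus strand.

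H19 is also the host of a microRNA, which the table lists as a row of its own, Mir675 (chr7:142577064-142577147, minus strand, in the first exon of H19 in GENCODE vM21). Its hairpin and both mature arms are shown, from RefSeq on GRCm38.p6. The Mir675 row lies within the H19 transcript and is no separate measure of it. Capitals mark the mature arms in the hairpin and the seed, bases 2 to 8, in each mature arm.
mir-675 hairpin: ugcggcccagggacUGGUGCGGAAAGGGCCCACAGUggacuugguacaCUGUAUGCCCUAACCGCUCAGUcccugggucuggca
mmu-miR-675-5p: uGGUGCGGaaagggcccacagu
mmu-miR-675-3p: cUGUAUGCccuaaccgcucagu
The 2 arms do not share a seed.

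For Dio3 and Meg3, which had unlike courses although they share a domain, the 250 bases before the RefSeq start site are shown (GRCm38.p6, plus strand). Capitals mark TATAAA and GGGCGG, the core letters of the TATA box and the GC box, on either strand.
Dio3 promoter, chr12:110278980-110279229: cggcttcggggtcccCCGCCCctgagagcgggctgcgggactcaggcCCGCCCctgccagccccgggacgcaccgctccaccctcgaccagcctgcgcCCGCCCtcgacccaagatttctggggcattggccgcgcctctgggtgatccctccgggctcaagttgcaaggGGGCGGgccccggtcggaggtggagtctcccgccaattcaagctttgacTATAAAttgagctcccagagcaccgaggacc
Meg3 promoter, chr12:109540746-109540995: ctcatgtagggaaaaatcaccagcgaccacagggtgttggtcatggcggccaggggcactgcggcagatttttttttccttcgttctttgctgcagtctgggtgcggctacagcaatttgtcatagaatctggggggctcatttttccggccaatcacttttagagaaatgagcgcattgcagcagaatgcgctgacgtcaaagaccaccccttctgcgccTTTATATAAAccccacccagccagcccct
The Dio3 stretch had a GC content of 69.6%, 4 GC box matches and 1 TATA match that began 31 bases before the start. The Meg3 stretch had a GC content of 52.4%, no GC box match and 2 overlapping TATA matches on opposite strands, beginning 29 bases before the start. Promoter windows from 250 bases before to 50 bases after a start were found for 8 of the 10 genes, 15 windows in all, with none for H19 and Cdkn1c. TATAAA on either strand stood in 13.6% of the 32851 mouse windows and, among the windows of these genes, in 2 of 15, those of Dio3 and Meg3. GGGCGG stood in 35.7% of all windows and in 8 of the 15. The core of the interferon-stimulated response element, searched as 2 copies of GAAA with any 2 bases between them on either strand, stood in 3.44% of all windows and in 1 of the 15, an Igf2 window.

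Depth was high in all libraries, between 83.9 and 268 M counts (M, mega), with the 4 and 6 h libraries of both arms the deepest. Between 11607 and 11815 genes reached 1 RPKM (reads per kilobase of exon, scaled to library size) in a library. Rn45s, the ribosomal precursor, made up 3.90% of counts at pretreated 0 h, 2.85% at pretreated 1 h and 0.974% to 1.51% in the other libraries. The interferon-induced gene Isg15 measured 0.608 RPKM at naive 0 h and 82.7 RPKM at pretreated 0 h. Markers of the labelled cell type were high: 9 of 10 fibroblast markers passed the filter, Lum was listed below 0.2 RPKM throughout, and their summed level was 10890 to 13459 RPKM in the naive and 9233 to 12175 RPKM in the pretreated arm. Of 7 skeletal muscle markers 0 passed, and Myod1, Myog, Myf5, Ckm and Pax7 were below 0.1 RPKM in every library. Of 6 macrophage markers 2 passed, Cd14 (mean 5.38 RPKM) and Cd68 (2.85 RPKM), with Ptprc and Itgam below 0.1 RPKM in every library. Of 5 endothelial markers Tek (1.54 RPKM) and Kdr (0.551 RPKM) passed, with Pecam1, Cdh5 and Emcn below 0.1 RPKM, and of 5 epithelial markers Cdh1 passed (2.44 RPKM), with Epcam and Krt5 below 0.1 RPKM. Of 6 neural markers Map2 (2.35 RPKM), Nes (2.04 RPKM) and Tubb3 (1.29 RPKM) passed, with Gfap and Sox10 below 0.1 RPKM.

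RPKM is scaled to transcript length, so levels can be set side by side between genes. Averaged over the 10 libraries, Mest was highest with 242 RPKM, followed by Grb10 with 155 RPKM, Igf2r with 57.8 RPKM, H19 with 54.7 RPKM and Meg3 with 31.7 RPKM. Dlk1 (11.7 RPKM) and Dio3 (11.4 RPKM) formed a middle tier, Cdkn1c (1.41 RPKM) and Igf2 (1.01 RPKM) a low one, and Peg3 was near the limit of detection at 0.0408 RPKM. In this order the ranges of neighbours overlapped except at 3 steps, from Grb10 down to Igf2r, from Dio3 to Cdkn1c and from Igf2 to Peg3. The genes also differed in how far they varied. The highest library exceeded the lowest 13.4-fold in H19 and 7.36-fold in Dio3, 3.15-fold in Dlk1, 2.65-fold in Cdkn1c, 2.27-fold in Meg3, 2.22-fold in Mest, 2.18-fold in Igf2, 1.69-fold in Grb10 and 1.28-fold in Igf2r.

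**Figure D1:**
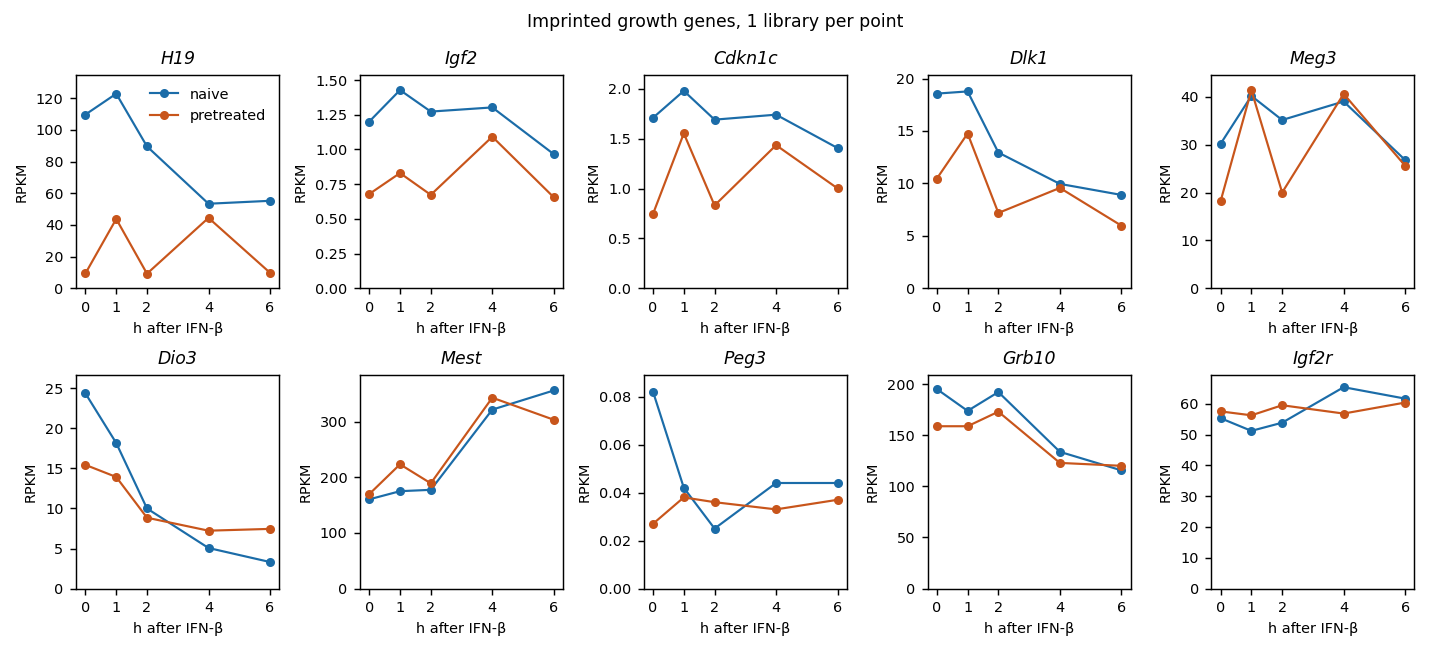
RPKM (vertical axes, each from 0) of the 10 genes against hours after IFN-β, with 1 library per point, naive in blue and pretreated in orange. H19 was lower in all pretreated than in all naive libraries, Dio3 was at 24.4 RPKM at naive 0 h and at 3.31 RPKM at naive 6 h, and Igf2r stayed between 51.2 and 65.4 RPKM.

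H19, an abundant fetal noncoding RNA, was the gene with the widest range. At 0, 1, 2, 4 and 6 h, the order of times kept in all series of values that follow, its naive libraries had 110, 123, 89.5, 53.4 and 55.2 RPKM. Its pretreated libraries had 9.39, 43.7, 9.19, 44.4 and 9.78 RPKM. The lowest naive library was thus above the highest pretreated library, and H19 was the only one of the 9 genes past the filter whose arms did not overlap. Over all genes, the arms did not overlap in 275 of 12168, or 2.26%. The pretreated libraries at 0, 2 and 6 h lay close together, and those at 1 and 4 h lay between them and the naive arm. Against the naive library of the same time, H19 was lower 11.7-fold, 2.81-fold, 9.74-fold, 1.201-fold and 5.65-fold at the 5 times. In total RNA from a culture, fewer cells that carry a transcript and less of it per cell cannot be told apart.

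The row of the microRNA hosted by H19, whose sequences are shown above, had the same shape. Mir675 was listed at 52.7, 65.9, 39.2, 27.3 and 26.8 RPKM in the naive arm from 0 to 6 h, and at 5.95, 18.6, 3.71, 22.2 and 4.91 RPKM in the pretreated arm. These rest on 26 to 831 counts per library and cannot be separated from reads of the H19 transcript, so they say nothing on mature miR-675. Of the other hosted microRNAs, 3 had rows that were near empty. Mir483 in Igf2 had 0 counts in all libraries (95% exact Poisson limit 3.69 counts each), Mir335 in Mest 0 to 14 counts and Mir770 in Meg3 0 to 17 counts. Mir1906-1, which the table places at Meg3 and at 1 other locus, had 44 to 289 counts, with 11.6, 11.1, 15.2, 12.6 and 11.02 RPKM in the naive and 4.30, 14.4, 12.6, 15.04 and 9.60 RPKM in the pretreated arm. Its reads cannot be separated from those of the transcripts around it.

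Igf2, which encodes the fetal growth factor, was low in this culture. It stood at 1.201, 1.43, 1.27, 1.30 and 0.966 RPKM in the naive arm from 0 to 6 h, and at 0.679, 0.830, 0.673, 1.09 and 0.655 RPKM in the pretreated arm. The values rest on 207 to 1216 counts per library. Every pretreated library was below the naive library of its time, and the arms overlapped only through the pretreated 4 h library, which was above the naive 6 h library. At 0 h the 95% exact Poisson intervals, which cover counting error only, were 1.09 to 1.32 RPKM in the naive and 0.607 to 0.758 RPKM in the pretreated library.

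Cdkn1c, which encodes the cyclin-dependent kinase inhibitor p57 and restrains growth, was at a similarly low level. Its values were 1.71, 1.98, 1.69, 1.74 and 1.41 RPKM in the naive arm and 0.747, 1.55, 0.831, 1.44 and 1.002 RPKM in the pretreated arm. It too was lower in the pretreated library at all 5 times. As with H19, the pretreated libraries at 1 and 4 h were the highest of their arm.

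Dlk1 encodes a transmembrane protein related to Notch ligands that holds back adipocyte differentiation. The naive libraries had 18.6, 18.8, 12.9, 9.95 and 8.90 RPKM. The pretreated libraries had 10.5, 14.8, 7.18, 9.57 and 5.97 RPKM. Each pretreated value was below the naive value of its time, while the ranges of the arms overlapped widely because both courses were lower at later times. At 4 h the arms were closest.

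Meg3, the noncoding RNA of the same domain, stood at 30.2, 40.2, 35.1, 39.0 and 26.8 RPKM in the naive arm. The pretreated libraries had 18.2, 41.4, 20, 40.6 and 25.6 RPKM. The pretreated 1 and 4 h libraries were therefore at or slightly above the naive values, and the pretreated 0 and 2 h libraries were the lowest of all 10. Against pretreated 0 h, Meg3 differed by 1.14 on the log2(RPKM + 1) scale at 1 h and by 1.11 at 4 h.

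Dio3 encodes the type 3 deiodinase, the enzyme that inactivates thyroid hormone. The naive libraries had 24.4, 18.2, 10, 5.07 and 3.31 RPKM, so that each library was below the one before it. The 6 h value was 7.36-fold below that at 0 h. The pretreated arm began lower and ended higher, with 15.4, 13.9, 8.85, 7.23 and 7.45 RPKM. Dio3 was thus lower in the pretreated than in the naive library at 0, 1 and 2 h and higher at 4 and 6 h. At 6 h the pretreated library was above the naive library by 0.97 on the log2(RPKM + 1) scale, just under 2-fold, whereas the raw RPKM ratio was 2.25. These values rest on 1378 to 5096 counts per library. Unlike H19, Igf2, Cdkn1c and Meg3, Dio3 was not highest at 1 and 4 h within the pretreated arm. Dio3os, a noncoding transcript whose gene lies 1.16 kb upstream and which was chosen after its values were seen, stood at 7.28, 6.04, 3.28, 4.36 and 2.48 RPKM in the naive and 6.71, 9.46, 3.38, 6.53 and 4.71 RPKM in the pretreated arm.

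Mest, a paternally expressed gene for an alpha/beta hydrolase of the mesoderm, was the most abundant of the group. It stood at 160, 175, 178, 322 and 356 RPKM in the naive and 170, 223, 189, 343 and 304 RPKM in the pretreated arm. The 4 and 6 h libraries of both arms were above all the others, and the arms lay close together. Peg3, which encodes a zinc finger protein, was listed at 0.082, 0.042, 0.025, 0.044 and 0.044 RPKM in the naive and 0.027, 0.038, 0.036, 0.033 and 0.037 RPKM in the pretreated arm. With 18 to 75 counts per library it did not pass the filter and was not tested.

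Grb10, an adaptor protein that dampens insulin and IGF receptor signalling, went the other way from Mest. It stood at 195, 174, 192, 134 and 116 RPKM in the naive and 159, 159, 173, 123 and 120 RPKM in the pretreated arm, with the 4 and 6 h libraries the lowest of each. Igf2r, the receptor that takes up IGF2 for degradation, was the steadiest of the 10. It stood at 55.3, 51.2, 53.9, 65.4 and 61.7 RPKM in the naive and 57.5, 56.3, 59.5, 56.8 and 60.4 RPKM in the pretreated arm. The noncoding RNA Airn is transcribed antisense from within Igf2r, and whether strand was used in counting is not stated by the labels.

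Pretreated and naive cells were first compared library by library, on log2(RPKM + 1) and without a test. At 0 h, 3.39% of the 12168 genes were 2-fold or more apart, and 0.838% of the 12168 were 2-fold or more lower in the pretreated library. Of the 9 genes only H19 was 2-fold apart on this scale, and it was lower. Cdkn1c, at -0.63, was at -1.10 with a pseudocount of 0.1 RPKM and at -1.19 on TMM-scaled CPM, past 2-fold. H19 alone was also 2-fold apart at 1 h, where 2.36% of all genes were 2-fold apart, at 2 h (2.51%) and at 6 h (0.37%). At 4 h, with 0.37% of all genes 2-fold apart, none of the 9 was. The median log2 difference of the 9 genes was -0.63, -0.22, -0.44, -0.12 and -0.23 from 0 to 6 h, beside medians over all genes of 0.00, 0.02, -0.03, -0.01 and 0.05. The 9 include H19, which was selected for low pretreated values, so these medians are descriptions only. H19, Igf2, Cdkn1c and Dlk1 were lower in the pretreated library at all 5 times, Grb10 at 4 of the 5, Meg3 and Dio3 at 3 of the 5, Igf2r at 2 of the 5 and Mest at 1 of the 5. How many of all genes were lower at all 5 times was not counted, so whether these counts are unusual is not known.

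**Figure D2:**
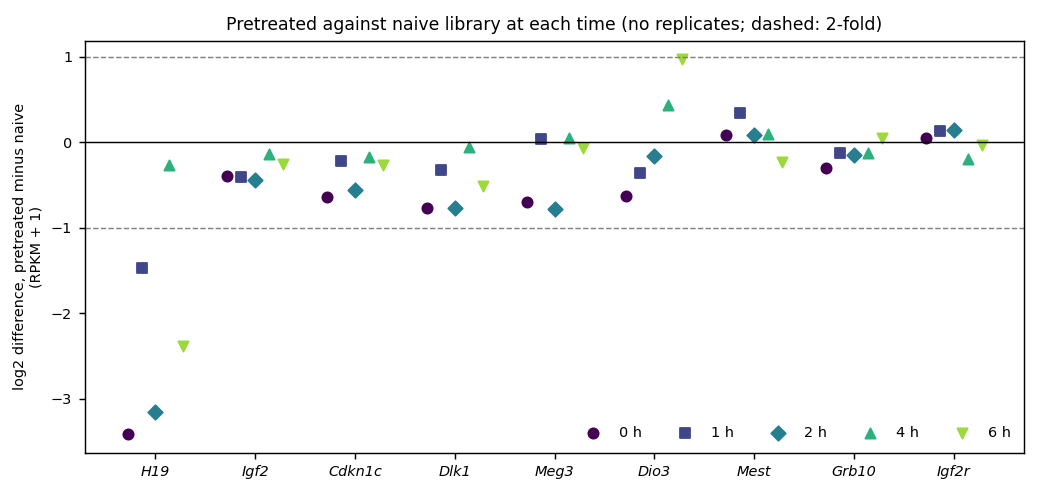
Difference between the pretreated and the naive library at each time on the log2(RPKM + 1) scale (vertical axis) for the 9 genes past the filter, with 1 symbol per time and dashed lines at 2-fold. H19 lay between -3.41 at 0 h and -0.26 at 4 h, and every other gene lay within 2-fold at all 5 times on this scale, while the RPKM ratios of Cdkn1c without the pseudocount at 0 and 2 h (2.29-fold and 2.04-fold lower) and of Dio3 at 6 h (2.25-fold higher) were past 2-fold.

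The arms were then compared over all times in 1 model of the counts with terms for time and arm (edgeR's quasi-likelihood test, two-sided, adjusted over 12168 genes). With 1 library per arm and time, its p-values measure how far the arm difference varies among the 5 times and not among cultures. It called 154 of 12168 genes, 1.27%, of which 47 were higher and 107 lower in pretreated cells. H19 differed by -2.26 on the log2 scale, given without a test. Of the other 8 genes edgeR called 0 at an adjusted p under 0.05, and 3 had an unadjusted p under 0.05. limma on log2(RPKM + 1) also called 0. The nearest were Igf2, with a log2 difference of -0.68 ± 0.13 (SE, adjusted p = 0.0587, 0.000475 to 0.211 over 16 alternatives), Dlk1, with -0.55 ± 0.12 (adjusted p = 0.0747, 0.00083 to 0.227), and Cdkn1c, with -0.67 ± 0.17 (adjusted p = 0.0940, 0.0108 to 0.263). DESeq2 called these 3, and also called 1371 genes in the table as a whole. Meg3 had a log2 difference of -0.31 ± 0.15 and Grb10 of -0.14 ± 0.07, with adjusted p of 0.258 and 0.251. Dio3 had a log2 difference of 0.07 ± 0.25 (adjusted p = 0.896), the mean of values below 0 at the early and above 0 at the late times. The naive values on which Dio3 was selected enter this contrast and its spread, so no conclusion is drawn from the p-value of Dio3. Mest and Igf2r had log2 differences of 0.06 and 0.01. The direction of Dio3, Mest and Igf2r changed when single libraries were left out, which in this model removes a whole time from the arm difference.

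The naive course was compared at 6 h with 0 h, where 9.9% of all genes were 2-fold or more apart. Of the 9 genes, Dio3 was lower, with -2.56 on the log2(RPKM + 1) scale, and Mest was higher, with 1.15. H19 and Dlk1 were both just short of 2-fold, at -0.98, and Dlk1 was at -1.05 with a pseudocount of 0.1 RPKM. In the pretreated arm 3.76% of all genes were 2-fold or more apart between 6 and 0 h and none of the 9 was, with Dio3 at -0.96 and Mest at 0.83. With a pseudocount of 0.1 RPKM, Dio3 was at -1.04. No library is labelled as left without IFN-β at 1 to 6 h, so differences from 0 h cannot be told apart from time in culture.

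Over both arms, the later times (mean of 2, 4 and 6 h) were set against 0 h with this edgeR model. This called 4859 of 12168 genes, 39.9%, of which 2421 were higher and 2438 lower. Of the 8 genes tested, 3 were called, a share near that of all genes. Mest rose by 0.79 ± 0.13 (SE, log2, adjusted p = 0.00681, 5.48e-08 to 0.0642 over 16 alternatives) and lost its call only without the naive 0 h library. Dlk1 fell by 0.59 ± 0.15 (adjusted p = 0.0214, 0.0015 to 0.202), a call lost without the naive 0 h library (adjusted p = 0.202) or without the pretreated 0 h library (adjusted p = 0.0504). Grb10 fell by 0.26 ± 0.08 (adjusted p = 0.0424), and 10 of 16 alternatives lost this call (adjusted p 0.0101 to 0.332). Without the naive 0 h library, calls over the whole table dropped from 4859 to 8. Meg3 had a log2 difference of 0.43 ± 0.19 (adjusted p = 0.110), and Igf2, Cdkn1c and Igf2r had 0.16, 0.26 and 0.15 with adjusted p of 0.494, 0.387 and 0.279. H19 had 0.06 ± 0.58 (adjusted p = 0.946): its later libraries were lower than 0 h in the naive arm, while the pretreated 4 h library was higher. The low pretreated libraries on which H19 was selected enter this contrast, so no conclusion is drawn from the p-value of H19. Without the pretreated 1 and 4 h libraries, an alternative chosen after seeing the data, the difference of H19 was -0.43. Dio3 differed by -1.50, given without a test.

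**Figure D3:**
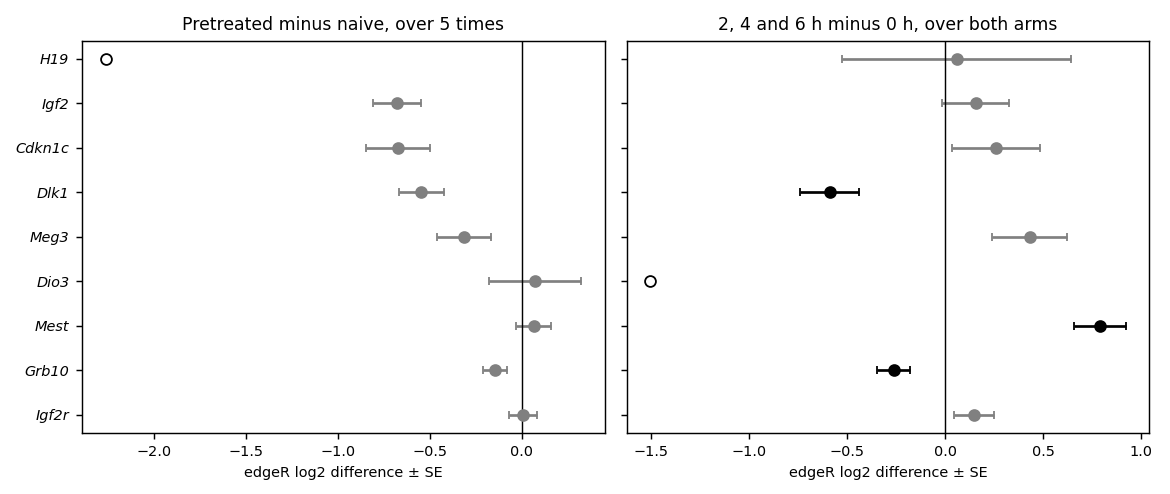
Log2 differences from the edgeR model (horizontal axes) with their standard errors for the 9 genes, between the arms on the left and between the later times and 0 h on the right; black marks an adjusted p under 0.05, grey a larger one, and open circles the values given without a test. Left of 0 is lower in pretreated cells or at later times: Mest lies at 0.79 and Dlk1 at -0.59 on the right.

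Among themselves the genes fell into patterns that did not follow their chromosomal neighbourhoods throughout. Over the 10 libraries, which hold the same 5 times in both arms, log2(RPKM + 1) of H19 correlated with Cdkn1c (Pearson r = 0.96) and Igf2 (r = 0.92), its neighbours on chromosome 7. It also correlated with Meg3 (r = 0.76) and Dlk1 (r = 0.78) on chromosome 12. Meg3 correlated with Cdkn1c (r = 0.88), but hardly with Dio3 of its own domain (r = 0.01). Dio3 went with Grb10 (r = 0.79) and Dlk1 (r = 0.71) and against Mest (r = -0.86), and Mest went against Grb10 (r = -0.94). These are descriptions over libraries of 2 arms and 5 times, with no test.

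The genes outside the group whose levels were most like H19 by the same measure, ranked over the 12168 genes, were Igfbp2 (r = 0.995), the row of Mir675 (r = 0.993), Fmod (r = 0.987), Susd2 (r = 0.987) and Mfap5 (r = 0.985). The row of Mir675 lies within H19 and cannot be separated from its reads, so its likeness adds nothing to the values of H19. The Igfbp2 protein binds insulin-like growth factors outside the cell. Igfbp2 stood at 45.6, 59.8, 38.2, 26.1 and 22.8 RPKM in the naive arm and at 5.34, 21.2, 3.81, 21.4 and 5.25 RPKM in the pretreated arm. Fmod, a collagen-binding proteoglycan, went from 27.9 RPKM at naive 0 h to 13.3 RPKM at naive 6 h. In the pretreated arm it had 5.03, 13.5, 3.98, 11.3 and 3.34 RPKM. Mfap5, a component of elastic microfibrils, stood at 27.0 RPKM at naive 0 h and 6.79 RPKM at pretreated 0 h.

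Most like Dio3 were Sdc1 (r = 0.990), a cell-surface heparan sulfate proteoglycan, Ak1 (r = 0.980), an adenylate kinase, and Eef1g (r = 0.979), a subunit of the translation elongation complex. They were followed by Rps6ka2 (r = 0.978), a ribosomal S6 kinase, and Pcyox1l (r = 0.974). All 5 moved over a smaller range than Dio3. Sdc1 stood at 42.3 RPKM at naive 0 h and 25.1 RPKM at naive 6 h, and at 38.6 and 31.1 RPKM at pretreated 0 and 6 h. Pcyox1l stood at 7.36 and 2.14 RPKM in the naive and 5.53 and 3.002 RPKM in the pretreated arm at these times. As in Dio3, the pretreated libraries of both genes were below the naive ones at 0 h and above them at 6 h.

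**Figure D4:**
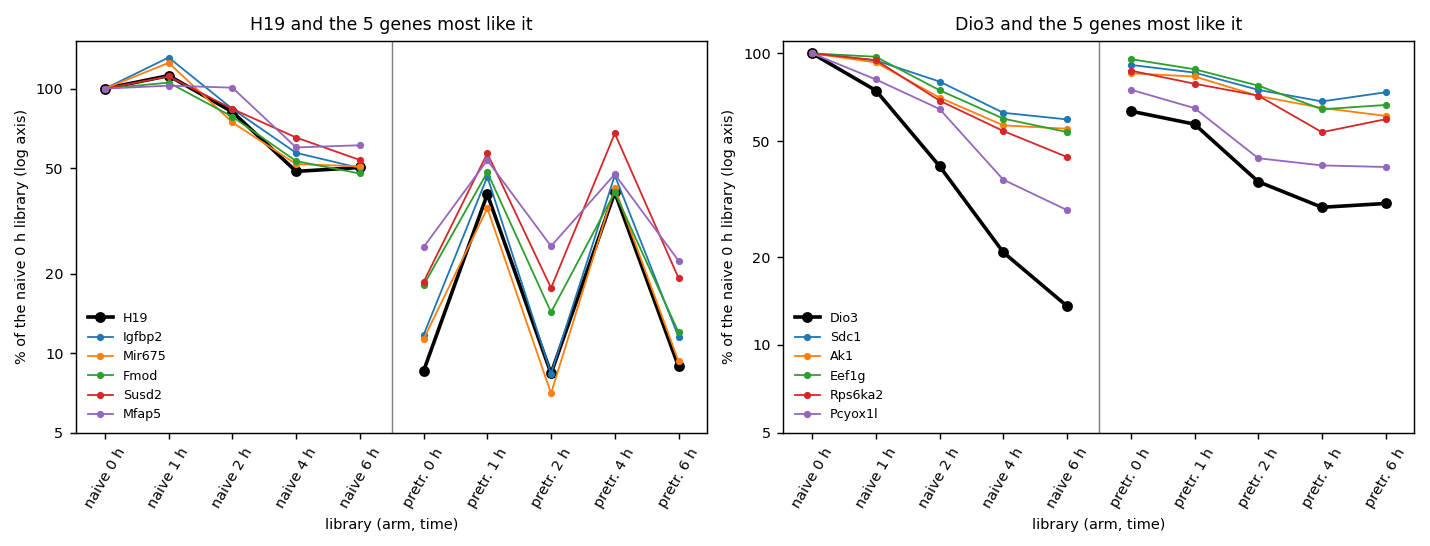
Levels of H19 (left) and Dio3 (right), in black, and of the 5 genes most like each, as a percentage of the gene's own naive 0 h library (vertical log axis) in the 10 libraries (horizontal axis, naive then pretreated). The genes on the left are higher at pretreated 1 and 4 h than at 0, 2 and 6 h, and those on the right are lower at 4 and 6 h than at 0 h in both arms.

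The pathways these genes belong to were described from lists of their other members. Among 25 further imprinted genes past the filter, edgeR called 0 between the arms, with 5 at an unadjusted p under 0.05 (DESeq2 3, limma 0; median log2 difference -0.08, all genes 0.00). The most abundant, Gnas and Cd81, averaged 949 and 291 RPKM. After stimulation 3 rose and 3 fell. Sfmbt2, a Polycomb protein gene, rose by 0.96 ± 0.10 (SE, log2, adjusted p = 0.00498), Airn by 0.66 ± 0.18 and Copg2, next to Mest, by 0.48 ± 0.15. Peg13 fell by 1.11 ± 0.18, Tssc4 by 0.97 ± 0.12 and Snrpn by 0.59 ± 0.18. Rian, a noncoding RNA downstream of Meg3 that was named after its values were seen, stood at 17.0, 13.6, 18.2, 13.3 and 11.6 RPKM in the naive and 8.49, 14.03, 11.3, 15.1 and 10.9 RPKM in the pretreated arm.

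Of 17 genes of the IGF axis past the filter, the pathway of Igf2, Igf2r and Grb10, 1 was called between the arms, where 1.27% of all genes were. This was Igfbp5, a binding protein, lower in pretreated cells by a log2 difference of -1.02 ± 0.18 (SE, adjusted p = 0.0483). It stood at 60.7, 63.0, 56.8, 142 and 153 RPKM in the naive and 27.9, 46.9, 27.8, 83.1 and 47.4 RPKM in the pretreated arm. Without the 1 and 4 h libraries of both arms, chosen after seeing the data, 0 of the 17 were called. After stimulation 2 of the 17 rose, Igfbp3 by 1.22 ± 0.36 and Igfbp5 by 0.89 ± 0.24, and 3 fell, the insulin receptor substrate Irs2 by 1.002 ± 0.19, Igfbp6 by 0.38 ± 0.11 and Igfbp7 by 0.30 ± 0.08. Igfbp6 and Igf2bp2, the most abundant besides, averaged 133 and 76.6 RPKM. Igf1, the growth factor related to Igf2, was named after its values were seen. It stood at 17.9, 20.3, 15.5, 10.7 and 5.93 RPKM in the naive arm and at 6.85, 18.8, 5.31, 14.4 and 4.199 RPKM in the pretreated arm, where the 1 and 4 h libraries were again the highest.

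Of 15 genes of the thyroid hormone axis, on which Dio3 acts, edgeR called 0 between the arms, with 3 at an unadjusted p under 0.05 (DESeq2 2, limma 0). After stimulation 3 rose and 4 fell. Dio2, the deiodinase that activates thyroid hormone, rose by 2.37 ± 0.47 (SE, log2, adjusted p = 0.00992). Its level was low: 0.123, 0.170, 0.632, 1.02 and 0.838 RPKM in the naive and 0.277, 0.470, 1.56, 0.855 and 0.743 RPKM in the pretreated arm. Dio2 reached 1 RPKM only at naive 4 h and pretreated 2 h, so it passed the filter only through later libraries. No conclusion is drawn from its p-value. Dio1 was listed at 0 in all libraries. The receptor gene Thrb rose by 1.16 ± 0.24 and the coactivator Ncoa1 by 0.49 ± 0.13. Hr fell by 0.81 ± 0.13, and the partner receptors Rxra and Rxrb by 0.51 ± 0.07 and 0.34 ± 0.07. The receptor gene Thra averaged 43.2 RPKM.

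Of 11 genes of the Notch axis, to which Dlk1 is related, the receptor gene Notch4 was higher in pretreated cells by 0.86 ± 0.10 (SE, log2, adjusted p = 0.0207). It was low, at 0.655 to 0.863 RPKM in the naive and 1.24 to 1.74 RPKM in the pretreated arm. Notch4 thus passed the filter of 1 RPKM only through the arm in which it was higher. No conclusion is drawn from its p-value for that reason. After stimulation the ligand gene Dll1 rose by 4.14 ± 0.63 and the coactivator Maml2 by 0.44 ± 0.12. Dll1 was at 0.122 RPKM at naive 0 h and 0.467 RPKM at pretreated 0 h. It passed the filter only through libraries after 0 h, so no conclusion is drawn from its call. Of 6 inhibitors of cyclin-dependent kinases and related genes beside Cdkn1c, Cdkn3 was lower in pretreated cells, by a log2 difference of -0.70 ± 0.08 (SE, adjusted p = 0.0201). Cdkn1a and Cdkn3 fell after stimulation, by 0.52 ± 0.16 and 0.50 ± 0.10. Without the 1 and 4 h libraries of both arms the calls of Notch4 and Cdkn3 between the arms were lost.

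The imprint maintenance list held 14 genes past the filter, among them Tet1, Tet2 and Tet3, which act to remove methylation. Between the arms edgeR called 0 of the 14, with 2 at an unadjusted p under 0.05 (DESeq2 0, limma 0, median log2 difference -0.12). After stimulation 5 rose and 4 fell. The demethylase Tet2 rose by 0.93 ± 0.24, Arid4b by 0.78 ± 0.12, Arid4a by 0.62 ± 0.11, the de novo methyltransferase Dnmt3a by 0.62 ± 0.12 and the imprint-binding zinc finger gene Zfp445 by 0.50 ± 0.12 (SE, log2). Those that fell were Uhrf1 by 0.91 ± 0.17, the maintenance methyltransferase Dnmt1 by 0.64 ± 0.12, Tet3 by 0.43 ± 0.13 and Trim28 by 0.35 ± 0.08. Dnmt1 stood at 50.6 RPKM at naive 0 h and 26.9 RPKM at naive 6 h, and at 47.6 and 31.1 RPKM at these times in the pretreated arm. The shares called after stimulation in these lists can be read against the 39.9% of all genes called in the same test. Without the pretreated 1 and 4 h libraries, 3 further imprinted genes rose and 2 fell, as did 2 and 3 of the IGF axis, 2 and 4 of the thyroid hormone axis, 1 and 0 of the Notch axis, 0 and 3 of the kinase inhibitors and 5 and 3 of the imprint maintenance genes.

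Within the pretreated arm, 4 of the 9 fibroblast markers past the filter, the matrix genes Col1a1, Col1a2, Col3a1 and Dcn, were higher at 1 and 4 h than at the other times, as H19 was. Pdgfrb was lower at 1 and 4 h, with 110 and 107 RPKM against 118 to 143 RPKM, and Fn1, Vim, Pdgfra and Thy1 showed neither order. This grouping was made after the values were seen, and the share of all genes with this order was not counted. The order of H19 was also met by 6 of 25 further imprinted genes, with 0 in the opposite order. It was met by 4 of 17 genes of the IGF axis (2 opposite) and 4 of 11 of the Notch axis (0 opposite). For the thyroid hormone axis it was 2 of 15 (1 opposite), for imprint maintenance 0 of 14 (2 opposite) and for the kinase inhibitors 0 of 6 (0 opposite). Col3a1 stood at 548, 951, 661, 1116 and 737 RPKM in the pretreated and 913 to 1068 RPKM in the naive arm, and Col1a2 at 1270, 2028, 1424, 2069 and 1426 RPKM in the pretreated arm. The summed level of the fibroblast list, made up largely of collagens, Vim and Fn1, was 12175 and 11106 RPKM at pretreated 1 and 4 h and 9233 to 10289 RPKM at 0, 2 and 6 h. The summed level of 6 adipocyte markers, of which 4 passed the filter and Adipoq and Plin1 were below 0.1 RPKM throughout, went the other way, with 18.5 and 17.6 RPKM at 1 and 4 h and 27.1 to 28.5 RPKM at 0, 2 and 6 h. Most of that sum was Lpl, with a mean of 14.4 RPKM. Lpl, Pparg and Fabp4 were lower at 1 and 4 h, and Cebpa showed neither order. The cartilage and bone list, of which 3 of 8 passed with Acan and Ibsp below 0.1 RPKM, summed to 34.7 RPKM at both 1 and 4 h and to 35.7 to 55.6 RPKM at the other times. That sum followed Sox9, at 15.6 and 15.2 RPKM at 1 and 4 h and 19.2 to 33.3 RPKM otherwise. Runx2 and Col2a1 showed neither order. The macrophage list was also lower at 1 and 4 h, with sums of 7.82 and 6.63 RPKM against 9.15 to 12.0 RPKM. The sums of the muscle, endothelial, epithelial and neural lists showed neither order. Between the arms, Fn1 of the fibroblast list and Col2a1 of the cartilage list were lower in pretreated cells, with log2 differences of -0.26 ± 0.05 (SE, adjusted p = 0.0481) and -1.93 ± 0.19 (adjusted p = 0.0171). The call of Fn1 was lost without the 1 and 4 h libraries of both arms. The part of cell composition in the values of H19, Igf2, Cdkn1c and Meg3 was not tested.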

How the data were processed

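Total RNA of 10 libraries was sequenced on a HiSeq2000, per the labels. Bowtie, TopHat and Cufflinks 1.2.1, with the build mm10, stand in the submitters' processing notes. Which tool counted reads, and whether by strand, was not given in the sources used here. Per the file headers, the authors deposited raw tag counts and RPKM values per RefSeq transcript. RPKM equalled the count times a constant per library and transcript, within 0.000167 log2 in 10637 transcripts above 5 RPKM. Rows without a symbol (15 of 30646, at most 0.0193% of counts) were left out. H19 is listed as a single exon over its whole span.

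Genes that reached 1 RPKM in 2 or more libraries were tested, on counts, with edgeR 4.0.16 (R 4.3.3, quasi-likelihood, TMM, terms for time and arm, 4 residual degrees of freedom, Benjamini-Hochberg, threshold 0.05). The code was run on simulated counts with the same spread for all genes and arm differences equal at all times. Such counts lack the variation among times seen here, so that run cannot show how far these p-values hold. DESeq2 1.42.0, limma 3.58.1, other scalings and leaving out each library were alternatives. Pairs of libraries were compared on log2(RPKM + 1), which understates folds of low genes. SE is the standard error of the edgeR log2 difference. The labels do not say whether libraries came from separate cultures. Members and lists were chosen with earlier results of these data known. Named beside the members were the called genes of each pathway list and the 5 likest genes of H19 and Dio3. The 2 most abundant genes of a pathway list were named too, except in the Notch and kinase inhibitor lists. A gene that this rule takes is not reported here.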

Additional observations from a re-analysis of the deposited data

Results flagged for a closer look

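Peg3, which did not pass the filter, was the only one of the 10 genes that met a rule for a closer look. It was highest at naive 0 h, with 0.082 RPKM, and lower in all 4 later naive libraries, whereas in the pretreated arm all 4 later libraries were above the 0.027 RPKM of 0 h. This difference between the arms was not tested. The values rest on 18 to 75 counts per library. The 95% exact Poisson intervals, for counting error only, were 0.0611 to 0.108 RPKM at naive 0 h and 0.0171 to 0.0405 RPKM at pretreated 0 h, and the latter overlapped those of all 4 later pretreated libraries.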

How the results depend on the processing

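The labels carry no replicate numbers, so no fit with a replicate block was made, and the arms were matched by time alone. All values are limited by having 1 library per arm and time. Between the arms, the count of 154 called genes became 1371 with DESeq2 (576 higher, 795 lower), 316 with no filter on low RPKM (97 higher, 219 lower) and 12 without the 1 and 4 h libraries of both arms (chosen after seeing the data; 0 higher, 12 lower), and ranged from 2 to 175 when a library was left out, with 2 without the 1 h or 2 h library of either arm and 7 without the 0 h or 6 h library of either arm. In the test of later times, leaving out a library gave 8 to 4983 calls, with 8 without naive 0 h, 2075 without pretreated 0 h and 3222 without naive 6 h. The count of genes 2-fold apart between the arms at 0 h, 413, became 720 with a pseudocount of 0.1 RPKM and 795 with TMM-scaled CPM. The log2 arm difference changed sign for Mest (-0.0239 without the 1 and 4 h libraries of both arms; -0.0036 to 0.1582 when a library was left out), Igf2r (-0.0025 with no filter; -0.0319 to 0.0577) and Dio3 (-0.1772 to 0.2613). After stimulation it changed sign for H19 (-0.0234 with limma, -0.4259 without the pretreated 1 and 4 h libraries; -0.6202 to 1.0108) and Cdkn1c (-0.0416 to 0.609). The cause was not tested. No arm or stimulation difference changed sign under the 16 alternatives for Igf2, Dlk1, Meg3 and Grb10.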
